A study of Mus musculus with 9 samples.

Results

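The 53 genes described here are WNT ligands, their secretion factors, receptors, antagonists and the beta-catenin machinery, taken from a list of names that leaves out WNT5A-class ligands and receptors. They were matched by symbol in a table of 56620 genes and loci, and all 53 were found. The study sequenced RNA from mouse pulmonary microvascular endothelial cells (PMVECs), bought primary cells that are named as the lining cells of small lung vessels. RA cells were kept in room air with 21% oxygen for 48 h, HO cells in hyperoxia with 85% oxygen for 48 h, and HO-rWNT5A cells in the same hyperoxia for 48 h with 100 ng/ml recombinant WNT5A protein. There were 3 libraries in each group. The labels do not say whether each library had its own culture, so the p-values cover only how far these libraries scatter, which may be technical scatter. All values come from whole cultures, in which fewer cells of a type and less RNA per cell cannot be told apart.

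WNT ligands are lipid-modified secreted proteins that bind Frizzled receptors. Together with the coreceptors LRP5 and LRP6 they recruit Dishevelled and Axin to the membrane, which stops the complex of Axin, APC and the kinase GSK3 from marking beta-catenin for destruction. Beta-catenin then enters the nucleus and activates genes with TCF/LEF factors, among them feedback inhibitors such as Axin2. In the lung vasculature, WNT/beta-catenin signalling is known for roles in vessel growth and barrier formation. WNT5A itself is best known for signals that do not run through beta-catenin.

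Promoter sequence from RefSeq (build GRCm38.p6) was available for 35 of the 53 genes. Each gene's window was the 250 bases before the RefSeq start nearest the start of its most abundant transcript. These 2 starts lay 10547 bases apart for Wnt6, 6279 for Nkd1, 522 for Tcf7l2 and 365 for Rnf43. For the other genes they were at most 262 bases apart. The windows of Dvl2 and Wnt9a are shown because Dvl2 passed the test in HO-rWNT5A vs RA and Wnt9a had the largest difference among the 30 genes tested, and that of Dkk1 because it was the only window of the 35 with a TCF/LEF motif. Dvl2 lies on the plus strand of chromosome 11 (chr11:70000595-70012301 in GENCODE M21), and its window is chr11:70000342-70000591, the 250 bases before the RefSeq start. Wnt9a also lies on the plus strand (chr11:59306928-59333552), and its window is chr11:59306680-59306927, 248 bases that stop before the first annotated exon. CG pairs are in capitals.
Dvl2: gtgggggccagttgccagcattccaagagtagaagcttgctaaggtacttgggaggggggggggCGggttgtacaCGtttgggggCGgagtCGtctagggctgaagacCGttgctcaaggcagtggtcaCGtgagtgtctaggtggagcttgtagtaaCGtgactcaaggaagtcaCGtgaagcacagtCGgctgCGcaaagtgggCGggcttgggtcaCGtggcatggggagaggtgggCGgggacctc
Wnt9a: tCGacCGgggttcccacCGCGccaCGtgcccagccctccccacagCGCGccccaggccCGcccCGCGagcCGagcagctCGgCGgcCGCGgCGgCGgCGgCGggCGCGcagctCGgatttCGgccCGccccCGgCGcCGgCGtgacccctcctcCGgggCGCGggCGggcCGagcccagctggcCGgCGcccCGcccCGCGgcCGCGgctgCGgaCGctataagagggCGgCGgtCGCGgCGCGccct

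The Wnt9a window holds 48 CG pairs and the Dvl2 window 13. The median was 20 in the 17 tested genes with a window, and 17 in protein-coding genes that reached 1 FPKM on average. The 18 listed genes below that level had a median of 16, against 3 in all protein-coding genes below it. Both protein-coding sets include listed genes and use the first window given for each gene, a different choice of window. The Dvl2 window also holds 3 copies of CACGTG, an E-box form that reads alike on both strands. That motif was looked for after the window had been read. At least 1 copy was present in 6.02% of 32851 windows, and 3 or more copies in 0.0609%. Of the 35 windows of listed genes, 4 held at least 1 copy, and the Wnt9a window held 1.

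The TCF/LEF motif was searched on both strands of the 250 bases. It was spelled ATCAAAG or else TTCAAAG, with AACAAAG or else TACAAAG as further forms. A match stood in 14.8% of all windows. Among protein-coding genes the share was 9.75% at a mean of at least 1 FPKM and 17% below it. Of the 35 genes 1 had a match, Dkk1, which encodes a secreted inhibitor of LRP5 and LRP6. Its 2 matches, in capitals, start 117 and 98 bases before the RefSeq start on the minus strand (chr19:30549588-30549613) and lie inside the first exon as annotated in GENCODE M21.
Dkk1: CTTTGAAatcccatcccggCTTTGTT
Dkk1 RNA was between 0.051 and 0.167 FPKM in all 9 libraries, so the gene with the matches was close to silent in every condition. A match is a description of letters and not of binding.

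Depth was estimated roughly at 21300000 to 26500000 fragments per library. The cell label was set against marker genes: 13 of 18 endothelial markers were below 1 FPKM, with Pecam1 at 0.0932, Cdh5 at 0.0544 and Vwf at 0.0442, while Flt1 (38) and Emcn (10.1) were present. Of 10 pericyte and smooth muscle markers, 8 were at or above 5 FPKM, led by Acta2 at 1578, and Fn1 stood at 1331. Of 11 epithelial markers 4 reached 5 FPKM, of 6 mesothelial markers 1, of 10 fibroblast markers 4 and of 10 leukocyte markers 0. In RA the summed endothelial markers were 53.3 to 57.9, against 51.6 to 58.2 for HO and 43.8 to 53 for HO-rWNT5A. The smooth muscle sums, in the same order, were 3035 to 3397, 2513 to 3423 and 2803 to 3226. The mesothelial sums were 26.5 to 30.5, 19.5 to 22.9 and 23.5 to 23.6 and did not overlap between the 3 groups. Wt1 supplied nearly all of the mesothelial sum, at 23.4 FPKM on average, and the 5 other mesothelial markers were below 1 FPKM. The mesothelial sum and the Wt1 difference therefore rest on the same gene. In HO vs RA the mesothelial marker Wt1 fell by 0.41 on the log2 scale (adjusted p = 0.0336) and the mural cell marker Notch3 rose by 0.65 (adjusted p = 0.0349), calls that held in 11 and 12 of 23 alternative settings. Both were lost when any 1 of the 3 RA libraries, HO replicate 2 or HO-rWNT5A replicate 2 was left out, and Wt1 also without HO-rWNT5A replicate 1 or 3, with adjusted p of up to 0.108 for Wt1 and 0.124 for Notch3. Notch3 went against most of its list in HO vs RA. Of the 8 pericyte and smooth muscle markers tested, 2 had a positive difference, and the median was -0.16. The part of cell composition in the results below was not tested. HO libraries differed most among themselves, with a median log2 SD of 0.123 per gene against 0.074 for RA and 0.083 for HO-rWNT5A.

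Of the 53 genes, 30 reached a mean of 1 FPKM over the 9 libraries and were tested, and 18 reached 5 FPKM. FPKM counts fragments relative to transcript length and to the fragments of the library, so levels can be set side by side between genes. The 23 genes below 1 FPKM included 6 of 11 ligands, 8 of 11 antagonists and 4 of 7 genes of the R-spondin axis, while 7 of 10 cytoplasmic genes and all 4 TCF/LEF genes passed. Sfrp5 and Kremen2, both encoding inhibitors, were listed at 0 in all 9 libraries.

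**Figure D1:**
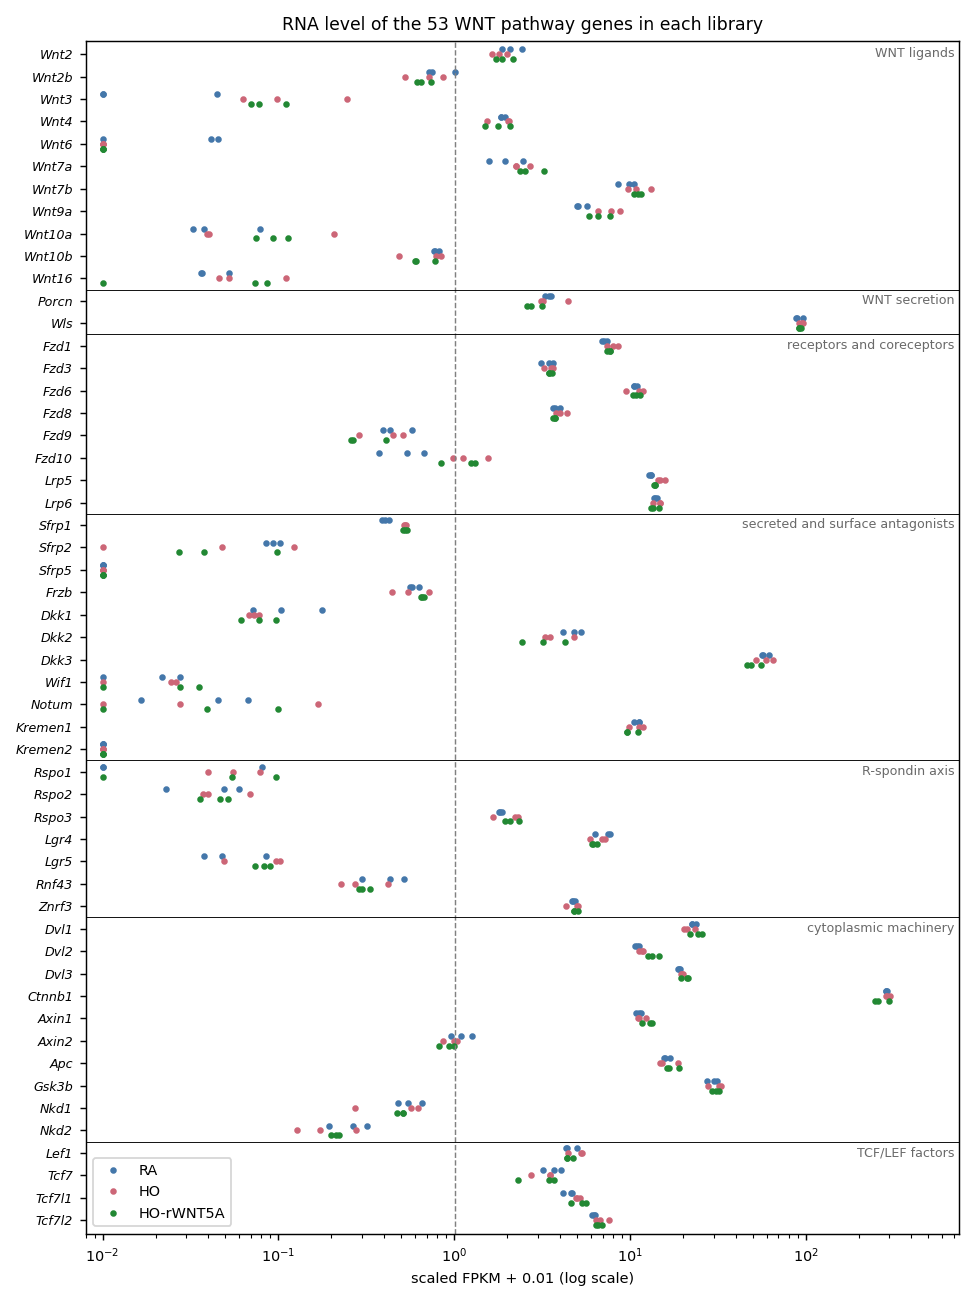
RNA level of the 53 genes in each library, as scaled FPKM + 0.01 on a log axis, in blocks by role; each point is 1 library and the dashed line marks 1 FPKM. Ctnnb1 and Wls stand highest, and most ligands and antagonists lie left of the line in all 3 groups.

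Among the 11 listed ligands, Wnt7b was the most abundant, with 42.7% of their summed FPKM. Its libraries read 9.91, 8.59 and 10.6 in RA, 9.69, 13.1 and 10.8 in HO, then 11.1, 11.6 and 10.5 in HO-rWNT5A. The groups overlapped. Wnt9a came next with 26.1%, followed by Wnt7a (2.36 FPKM), Wnt2 (1.95) and Wnt4 (1.83), whose ranges over the libraries overlap one another. Wnt2b and Wnt10b stayed near 0.7 FPKM, with means of 0.723 and 0.71, and Wnt3, Wnt6, Wnt10a and Wnt16 had means from 0.00739 to 0.071. Wls, the carrier that escorts WNT proteins to the cell surface, was at 92.9 FPKM with a range of 88.6 to 97. Porcn, the enzyme that attaches the lipid to WNT proteins, was at 3.27.

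The 6 Frizzled receptors on the list, which leaves out WNT5A-class receptors, summed to 25.7 to 30 FPKM. Fzd6 held 40% of that sum and Fzd1 28.1%, with Fzd8 and Fzd3 at 14.2% and 12.8%, a neighbouring pair whose ranges of 13.1% to 15.4% and 10.8% to 14% overlapped. Fzd9 and Fzd10 were below 1 FPKM. The coreceptors Lrp5 and Lrp6 were level at 14 FPKM each, the first ranging from 12.8 to 15.9 and the second from 13.1 to 14.9.

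Dkk3, a Dickkopf family member that unlike Dkk1 is not an established LRP5/6 inhibitor, supplied 91.5% of the RNA of the 9 secreted antagonist genes at 55.9 FPKM. Dkk2, which binds LRP5/6, was at 3.97 and Kremen1, a membrane receptor for Dickkopf proteins, at 10.7. Sfrp1, Frzb, Sfrp2 and Wif1, whose products bind WNT proteins, had means of 0.476, 0.596, 0.0593 and 0.0114. Notum, which removes the lipid from WNT proteins, was at 0.0436. In the R-spondin axis, which raises receptor levels at the membrane, the receptor Lgr4 was at 6.71 and Lgr5 at 0.0639. The ubiquitin ligase Znrf3, which removes Frizzleds from the membrane, was at 4.81 and its relative Rnf43 at 0.333. Of the R-spondin ligands Rspo3 was at 2, and Rspo1 and Rspo2 at 0.0383 and 0.0358.

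Ctnnb1, which encodes beta-catenin, was the highest of the 53 genes at 283 ± 17.5 FPKM (SD, n = 9). Its libraries read 286, 288 and 289 in RA, 289, 287 and 301 in HO, then 299, 259 and 249 in HO-rWNT5A, so HO-rWNT5A replicates 2 and 3 were the lowest of all 9 and replicate 1 lay among the HO values. The parts of the destruction complex followed at 30.5 for Gsk3b, 16.6 for Apc and 11.8 for Axin1. The 3 Dishevelled genes, which relay the signal from Frizzled, summed to 51.1 to 60.4 FPKM, of which Dvl1 held 41.7%, Dvl3 36.3% and Dvl2 22%. Of the TCF/LEF factors, Tcf7l2 held 33.8% of the sum, Tcf7l1 25%, Lef1 24% and Tcf7 17.2%. Tcf7l1 and Lef1 were not separated by their ranges of 22.9% to 28.7% and 22.2% to 26.6%.

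Among the feedback genes of beta-catenin, Axin2, Nkd1 and Nkd2 were low. Axin2, the most widely used readout of the pathway, read 1.08, 0.949 and 1.25 FPKM in RA, 0.857, 1.03 and 0.994 in HO, then 0.992, 0.81 and 0.926 in HO-rWNT5A. The 3 groups overlapped, and its mean of 0.989 fell just short of the level for testing. When every gene above 0 was tested, its log2 differences were -0.09 (95% interval -0.29 to 0.11) for HO vs RA, -0.04 (-0.24 to 0.16) for HO-rWNT5A vs HO and -0.13 (-0.33 to 0.07) for HO-rWNT5A vs RA. Nkd1 and Nkd2, which bind Dishevelled and dampen the signal, had means of 0.507 and 0.211 with overlapping groups in each comparison.

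Hyperoxia against room air asked what 85% oxygen did to these genes. None of the 30 passed an adjusted p of 0.05 (limma on log2(FPKM + 1), Benjamini-Hochberg over 13831 genes), while 273 of all genes did, 1.97%. At an unadjusted p of 0.05, 2 of 30 genes passed (6.67%), Wnt9a and Lrp5, against 18.1% of all genes. The log2 differences ran from -0.25 for Dkk2 to 0.48 for Wnt9a, and their median was 0.046 beside -0.004 over all genes tested. The 95% intervals of 28 of the 30 genes lay within 0.5 on either side of 0. Those of Wnt9a and Dkk2 reached further.

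Wnt9a, a ligand of the canonical branch, read 5.06, 5.68 and 4.96 FPKM in RA, 6.59, 8.74 and 7.77 in HO, then 5.81, 6.59 and 7.74 in HO-rWNT5A. All 3 HO and all 3 HO-rWNT5A libraries were above the 3 RA libraries. HO vs RA was 0.48 on the log2 scale (95% interval 0.23 to 0.72), with an adjusted p of 0.0597 that missed the threshold, and it was 0.0391 without HO replicate 1. Over the 23 alternative settings that p ran from 0.0391 to 0.327, the highest without HO replicates 2 and 3 together, where the difference was 0.29. For HO-rWNT5A vs RA the difference was 0.30 (0.05 to 0.55, adjusted p = 0.156), and for HO-rWNT5A vs HO it was -0.17 (-0.42 to 0.07, adjusted p = 0.655).

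Lrp5, the coreceptor, read 13.1, 12.8 and 13.1 in RA, 14.9, 15.9 and 14.4 in HO, then 13.9, 13.7 and 13.9 in HO-rWNT5A. Its 3 groups did not overlap, with HO highest and HO-rWNT5A in the middle. HO vs RA was 0.20 (95% interval 0.08 to 0.32), and the adjusted p of 0.0912 did not pass; without HO replicate 3 it was 0.0451. HO-rWNT5A vs HO was -0.11 (-0.23 to 0.00, adjusted p = 0.551). The other coreceptor, Lrp6, differed by 0.05 in HO vs RA (-0.09 to 0.18), with overlapping groups.

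In HO vs RA the HO libraries lay wholly above the RA libraries for 6 of the 30 genes (20%), against 11.3% of all genes. These were Wnt9a, Lrp5, Fzd1, Tcf7l1, Tcf7l2 and Dvl3. None lay wholly below, against 10.1% of all genes. A positive difference was found for 24 of the 30 genes and for 48.9% of all genes. With FPKM as deposited, without scaling of the libraries, 12 of the 30 and 34.6% of all genes were positive, so the direction of these small differences depended on the scaling.

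**Figure D2:**
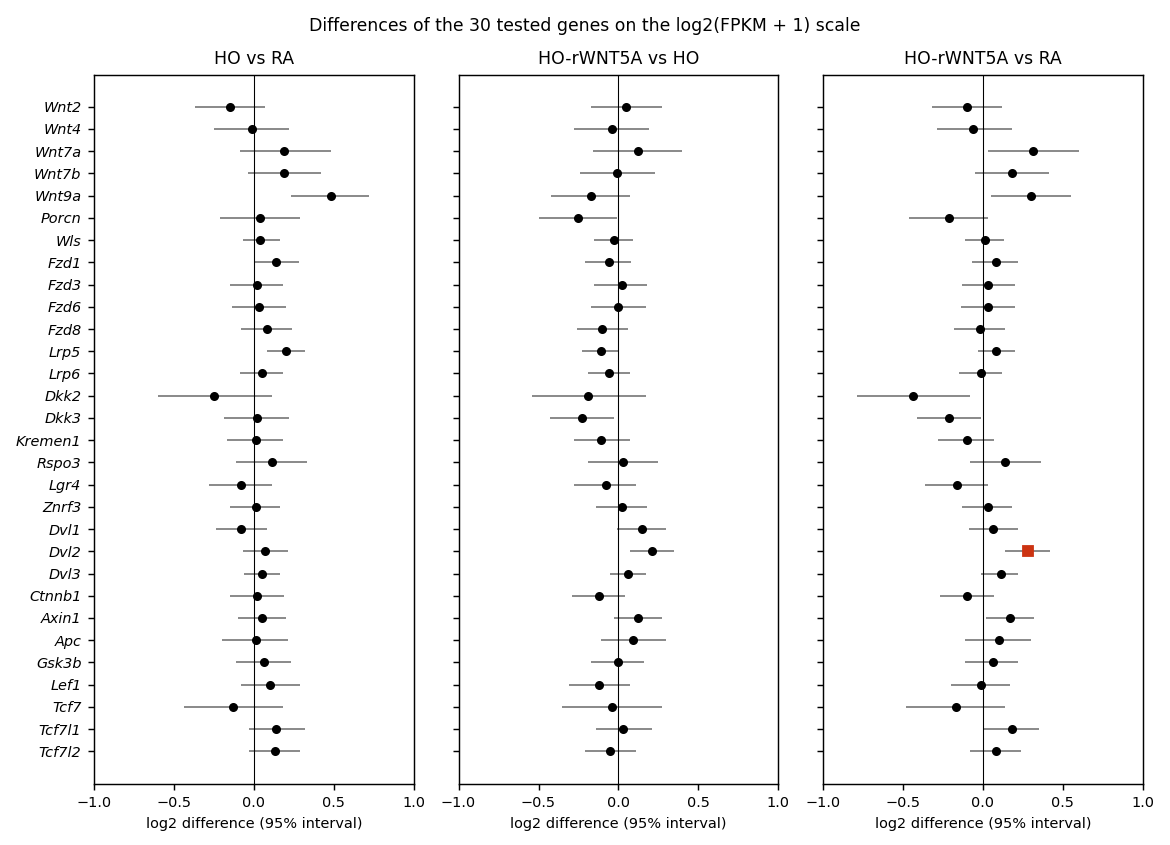
Log2 differences of the 30 tested genes in the 3 comparisons; points are estimates from limma on log2(FPKM + 1), lines are 95% intervals and the red square passed an adjusted p of 0.05. Dvl2 in HO-rWNT5A vs RA is the only square, and most intervals include 0.

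The addition of recombinant WNT5A under hyperoxia was tested as HO-rWNT5A vs HO. None of the 30 genes passed, beside 1 of 13831 genes in all, 0.00723%. At an unadjusted p of 0.05, 3 of 30 passed (10%), against 9.2% of all genes. Those were Dvl2, which was higher, and Dkk3 and Porcn, which were lower. The differences ran from -0.25 for Porcn to 0.21 for Dvl2, with a median of -0.035 beside 0.002 over all genes, and 28 of 30 intervals lay within 0.5 on either side of 0. The HO-rWNT5A libraries lay wholly above the HO libraries for 1 gene, Dvl2 (3.33%, against 6.27% of all genes), and wholly below for Lrp5 and Fzd8 (6.67%, against 6.7%).

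Dkk3 read 61.6, 56.1 and 57.1 FPKM in RA, 65.3, 59.6 and 52.3 in HO, then 55.6, 48.9 and 46.2 in HO-rWNT5A. HO-rWNT5A libraries were all below the RA libraries, but replicate 1 lay within the HO range. The difference was -0.23 against HO (95% interval -0.43 to -0.03, adjusted p = 0.503) and -0.21 against RA (-0.41 to -0.01, adjusted p = 0.214). Porcn read 3.56, 3.26 and 3.44 in RA, 3.19, 4.44 and 3.11 in HO, then 3.14, 2.72 and 2.59 in HO-rWNT5A. Its HO mean was raised by replicate 2, and HO-rWNT5A vs HO was -0.25 (-0.50 to -0.01, adjusted p = 0.532). Neither gene passed in any of the alternative settings.

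Hyperoxia with WNT5A against room air shares its libraries with the other comparisons and is no separate evidence. Of the 30 genes, 1 passed, Dvl2, beside 589 of 13831 genes, 4.26%. It was higher, as were 2.39% of all genes by the same test. At an unadjusted p of 0.05, 7 genes passed (23.3%, against 20.9% of all genes). Of these, Dvl2, Axin1, Wnt9a, Wnt7a and Tcf7l1 were higher and Dkk2 and Dkk3 lower. The median difference was 0.031 beside -0.004 over all genes. The HO-rWNT5A libraries lay wholly above RA for 8 of 30 genes (26.7%, against 16.3% of all genes) and wholly below for Dkk3 and Porcn (6.67%, against 16.5%).

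Dvl2, which encodes a Dishevelled protein that acts in both the beta-catenin and the planar polarity branches, read 11, 11.3 and 10.7 FPKM in RA, 11.9, 11.2 and 11.7 in HO, then 14.7, 13.4 and 12.7 in HO-rWNT5A. All HO-rWNT5A libraries were above all 6 others, and RA and HO overlapped. Against RA it rose by 0.28 on the log2 scale (SE 0.063, 95% interval 0.14 to 0.42, adjusted p = 0.038). Against HO the difference was 0.21 (0.07 to 0.35), and its adjusted p of 0.5 did not pass. HO vs RA was 0.07 (-0.07 to 0.21).

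The Dvl2 call was lost in 12 of 23 alternative settings, though the difference stayed positive in each. It was lost without RA replicate 1, 2 or 3, at adjusted p = 0.12, 0.091 and 0.126, and without HO-rWNT5A replicate 1, 2 or 3, at 0.114, 0.119 and 0.0538. The adjusted p was also above the threshold with no filter on low values (0.0815), FPKM as deposited (0.1), equal FPKM totals (0.169), no variance trend (0.0503), the replicate number as a block (0.0593) and protein-coding transcripts alone (0.172, with a difference of 0.17). The exons of Dvl2 share 1151 bases with Acadvl on the other strand, a gene of fatty acid oxidation whose RA, HO and HO-rWNT5A means were 26.6, 28.4 and 28.6 FPKM. Whether the counting used strand is not given in the sources used here, so reads of the pair may be mixed.

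The other Dishevelled genes gave smaller differences. Dvl1 read 22.5, 22.5 and 23.8 in RA, 23.5, 20.3 and 21.2 in HO, then 24.4, 25.6 and 22.1 in HO-rWNT5A, which overlap, with 0.06 in HO-rWNT5A vs RA (-0.09 to 0.22). Dvl3 read 18.9, 19.4 and 19.1, then 20, 19.6 and 19.9, then 21.3, 21.1 and 19.6, so all RA libraries were lowest, with 0.11 (-0.01 to 0.22, adjusted p = 0.265). Whether Dvl2 differed more than these was not tested. Axin1, the scaffold of the destruction complex, read 10.8, 11.2 and 11.5 in RA, 11.1, 12.3 and 11.3 in HO, then 13.4, 13 and 11.7 in HO-rWNT5A. It differed by 0.17 in HO-rWNT5A vs RA (0.02 to 0.32), and the adjusted p of 0.182 did not pass.

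For the RNA of beta-catenin itself the interval included 0 in each comparison. Ctnnb1 differed by 0.02 (-0.15 to 0.19) in HO vs RA, by -0.12 (-0.29 to 0.04) in HO-rWNT5A vs HO and by -0.10 (-0.27 to 0.07) in HO-rWNT5A vs RA. Gsk3b and Apc differed by 0.06 (-0.11 to 0.22) and 0.10 (-0.11 to 0.30) in the last comparison. Dkk2 had the widest interval, at -0.44 (-0.79 to -0.08, adjusted p = 0.155). It read 4.81, 4.17 and 5.25 in RA, 4.81, 3.51 and 3.28 in HO, then 4.27, 3.19 and 2.43 in HO-rWNT5A, and the groups overlapped.

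**Figure D3:**
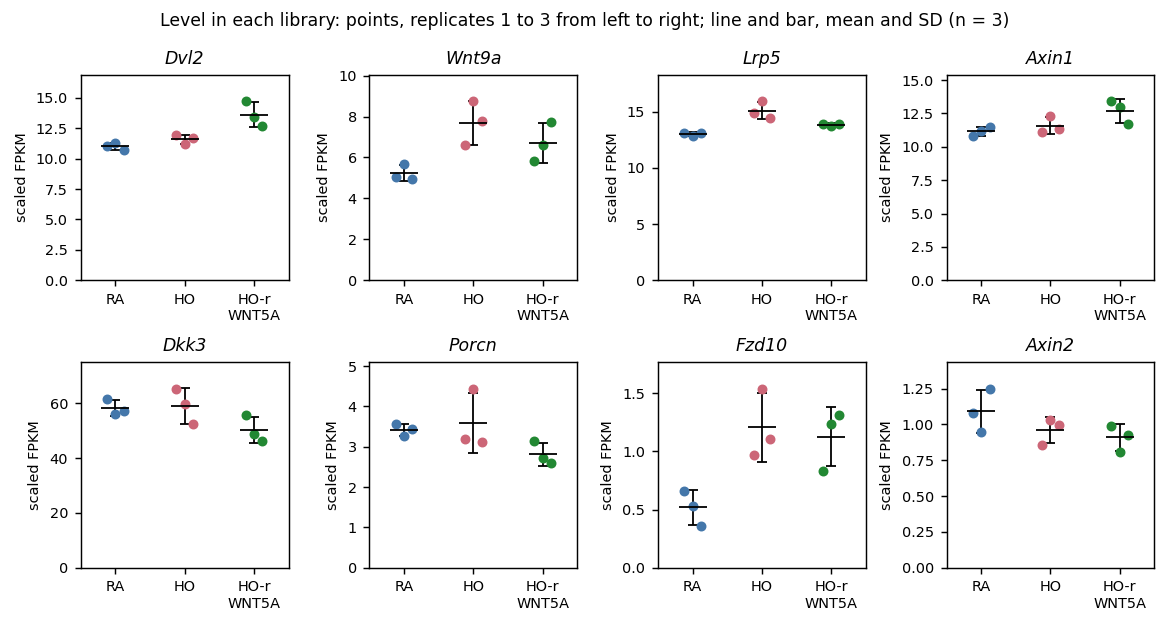
Scaled FPKM of 8 genes by group, on axes that start at 0; points are libraries, and the line and bar are the mean and SD (n = 3). Dvl2 is highest in the 3 HO-rWNT5A libraries, Wnt9a and Fzd10 are lowest in the 3 RA libraries, and Axin2 overlaps in all groups.

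Of the 21 genes below 1 FPKM that were above 0 in some library, 3 had all HO and all HO-rWNT5A libraries above RA (14.3%), and they were picked out after their values were seen. Among all 20097 genes below 1 FPKM and above 0 in some library the share was 1.39%. Those genes were not matched in level to the listed ones, so these shares are not a like comparison. Fzd10, a Frizzled receptor, read 0.664, 0.528 and 0.362 in RA, 0.971, 1.54 and 1.11 in HO, then 0.834, 1.24 and 1.31 in HO-rWNT5A. With every gene above 0 tested, HO vs RA was 0.54 (0.21 to 0.86, adjusted p = 0.193). Sfrp1, a secreted WNT binder, read 0.379, 0.393 and 0.418 in RA, 0.522, 0.509 and 0.515 in HO, then 0.518, 0.5 and 0.527 in HO-rWNT5A. Its difference was 0.12 (0.02 to 0.21, adjusted p = 0.331). Wnt3, a canonical ligand, was listed at 0, 0 and 0.0349 in RA and ran from 0.0529 to 0.235 in the 6 other libraries, with 0.15 in HO vs RA (0.02 to 0.28, adjusted p = 0.358). None of the 3 passed. A level of 1 FPKM corresponds to 42.7 to 53 estimated fragments for a transcript of 2 kb, which limits the precision at these levels.

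At the level of transcripts, a protein-coding transcript led in all 30 tested genes and held at least 80% of the RNA in 16 of them. Of 61 transcripts of these genes that could be tested, none passed in limma in any comparison, beside 0.0153%, 0.0115% and 0.0382% of 26158 transcripts in HO vs RA, HO-rWNT5A vs HO and HO-rWNT5A vs RA. At an unadjusted p of 0.05, 1, 2 and 9 of the 61 passed, against 11.2%, 6.78% and 11.1% of all transcripts. Dvl2-201, the leading Dvl2 transcript with 59.5% of the gene, averaged 6.91 ± 0.173 FPKM for RA libraries, 7.03 ± 0.28 for HO and 7.59 ± 0.687 for HO-rWNT5A (SD, n = 3). The 6 other Dvl2 transcripts together read 3.86, 4.55 and 3.87 in RA, 4.91, 3.88 and 4.95 in HO, then 6.32, 6.22 and 5.47 in HO-rWNT5A. Most of the higher Dvl2 sum therefore stood in transcripts other than the leading one. Their RA and HO-rWNT5A means were 0.788 and 1.4 for Dvl2-202, annotated for nonsense-mediated decay, and 0.897 and 1.34 for Dvl2-207, which is protein-coding. For Dvl2-206 and Dvl2-203, annotated as retaining an intron, they were 1.25 and 1.63, and 0.598 and 0.775.

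For other genes, single transcripts were listed at 0 in some libraries. Tcf7-201 was listed at 0 in HO replicate 2 and HO-rWNT5A replicate 2 and lay between 2.12 and 2.75 in the other 7 libraries. In those same 2 libraries Tcf7-202 stood at 2.73 and 2.3, against 0.951 to 1.32 elsewhere. The gene sum was 2.73 and 2.3 there, the lowest of the 9. Tcf7l2-209 was listed at 0 in HO replicate 2 and HO-rWNT5A replicate 1, while the Tcf7l2 gene sums there, 6.79 and 6.4, were within the range of the rest. Ctnnb1-209, a retained-intron transcript, ran from 14.5 to 72.6 FPKM without following the groups, and Ctnnb1-201 from 179 to 228.

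**Figure D4:**
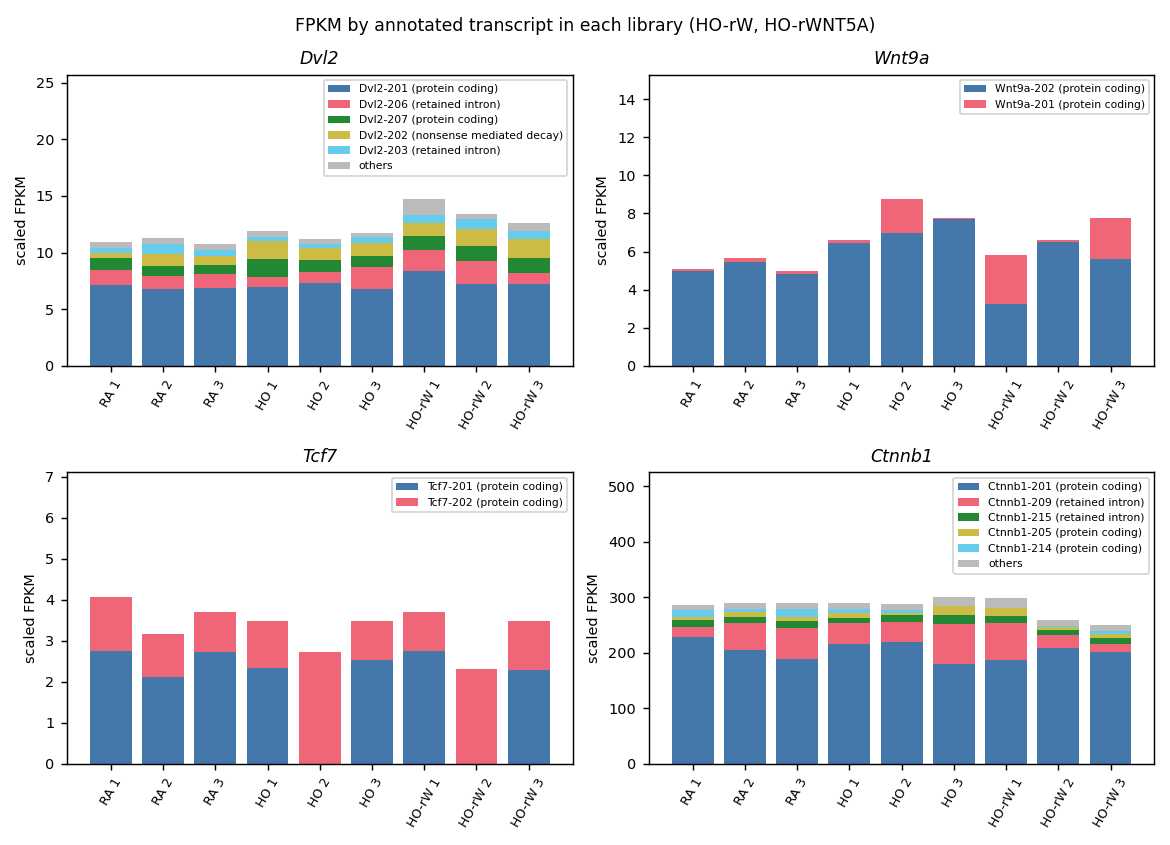
FPKM of the annotated transcripts of Dvl2, Wnt9a, Tcf7 and Ctnnb1 in each library, stacked; the height of a bar is the gene sum. Tcf7-201 is missing in HO replicate 2 and HO-rWNT5A replicate 2, and Wnt9a-201 is sizeable in 3 libraries, HO replicate 2 and HO-rWNT5A replicates 1 and 3.

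Genes of the pathway were also counted on 4 further lists, which are not fully separate. The list of beta-catenin targets repeats Axin2, Lgr5, Nkd1, Notum, Rnf43, Znrf3, Lef1, Tcf7 and Dkk1 of the 53 genes. It also shares genes with the list of other ligands, receptors and antagonists, so some genes were counted more than once. Of 24 other ligands, receptors and antagonists, 10 were tested and none passed in limma in any comparison. At an unadjusted p of 0.05, 1, 1 and 3 passed in HO vs RA, HO-rWNT5A vs HO and HO-rWNT5A vs RA, where 18.1%, 9.2% and 20.9% of all genes did. The highest were Adgra2, a coreceptor for WNT7 signals in vessels, at 98.1 FPKM, and Gpc4, Tpbg and Mesd at 70.1, 13.3 and 11.8. Of 23 nuclear partners, 20 were tested and none passed in limma (3, 0 and 5 at an unadjusted p of 0.05), with the corepressors Aes, Ctbp1 and Ctbp2 at 114, 57 and 52.1 and Tbl1x at 33.4.

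Of 30 other genes of the destruction complex and signal relay, 29 were tested. Cdk14, a kinase that primes LRP6, fell in HO vs RA by 0.25 on the log2 scale (adjusted p = 0.0489), from 12.8, 12.9 and 12.9 FPKM to 10.5, 10.3 and 11.2. In HO-rWNT5A vs RA, Apc2, a relative of Apc, rose by 0.31 (adjusted p = 0.0492), and Tmem131l, a negative regulator of the pathway, fell by 0.28 (adjusted p = 0.0497). No gene of that list passed in HO-rWNT5A vs HO in limma. At an unadjusted p of 0.05, 7, 2 and 6 of the 29 passed in HO vs RA, HO-rWNT5A vs HO and HO-rWNT5A vs RA. Of all genes, 18.1%, 9.2% and 20.9% did. At the adjusted threshold the shares of all genes were 1.97% in HO vs RA and 4.26% in HO-rWNT5A vs RA. The Cdk14 call was lost without any library other than HO replicate 3, with an adjusted p of up to 0.162. The Apc2 and Tmem131l calls were lost without HO replicate 1 (0.0602 for each) and without each RA and each HO-rWNT5A library, with an adjusted p of up to 0.152 and 0.166. Counting every setting, the 3 calls were lost in 16 of 23, 12 of 22 and 13 of 22, and with protein-coding transcripts alone the adjusted p was 0.625 for Cdk14 and 0.476 for Tmem131l. The most abundant of the list were Csnk1a1 at 131, Ppp2r1a at 78.5, Tnks2 at 63.3 and Csnk1d at 53.4.

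Of 27 genes often listed as beta-catenin targets, 16 were tested. In limma 1 of them passed in HO vs RA and in HO-rWNT5A vs RA, beside 1.97% and 4.26% of all genes. At an unadjusted p of 0.05, 2 passed in HO vs RA, 0 in HO-rWNT5A vs HO and 5 in HO-rWNT5A vs RA. The shares of all genes there were 18.1%, 9.2% and 20.9%. Fosl1, an AP-1 subunit that other pathways also induce, read 6.75, 6.13 and 7.85 FPKM in RA, 9.68, 11.5 and 11.5 in HO, then 10.1, 12.2 and 11.7 in HO-rWNT5A. All 6 hyperoxic libraries were above RA. It rose by 0.59 in HO vs RA (adjusted p = 0.0216) and by 0.64 in HO-rWNT5A vs RA (adjusted p = 0.00976). The first call was lost without HO replicate 2 (0.0678) and without RA replicate 1, 2 or 3 (0.0789, 0.096 and 0.053), and the second without RA replicate 1 (0.0517). Both were also lost with no filter on low values (0.0906 and 0.0506), and the first with the 2 compared groups alone (0.0553), with equal FPKM totals (0.0954) and without HO replicates 2 and 3 together (0.18). The most abundant were Ccnd1, the gene of cyclin D1, at 309, Cd44 at 85.2, Id2 at 43.1 and Plaur at 36. Ccnd1 differed by 0.17 in HO vs RA (-0.03 to 0.37, adjusted p = 0.362) and by -0.12 in HO-rWNT5A vs HO (-0.32 to 0.09, adjusted p = 0.727).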

How the data were processed

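RNA from 9 libraries was sequenced as read pairs. Per the labels' protocols, reads were trimmed with Skewer 0.2.2 and aligned with STAR 2.5.3a, then assembled with StringTie 1.3.1 and set against Ensembl by gffcompare 0.9.9c. FastQC 0.11.2, DESeq2 and the builds hg38 and mm10 appear in the submitters' processing notes, without a role. The authors deposited FPKM per transcript; the tool that computed it is not given in the sources used here. The identifiers are mouse: 99.36% of those from Ensembl were found in GENCODE M21 (GRCm38), and FPKM was summed per gene.

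Libraries were scaled by median ratios (factors 0.943 to 1.040). The 13831 genes that averaged 1 FPKM or more entered limma 3.58.1 (R 4.3.3) as log2(scaled FPKM + 1): 1 fit over all 9 libraries, variance trend, two-sided, Benjamini-Hochberg over all genes, threshold 0.05. Differences on this scale understate changes of low genes. Transcripts were tested alike. FPKM is not a count, and a count test was therefore not used. Depth was estimated from the commonest product of FPKM and transcript length, among low values of genes with 1 transcript. That product was taken as the worth of 1 fragment. Tables and plots used Python 3.11.15, pandas 2.3.3 and matplotlib 3.10.9. All 53 genes could be named; of other pathway genes, those past the threshold and the 4 highest of each list. The members and lists were chosen with earlier results of these data known. Alternatives were other pseudocounts, filters, scalings and variance models, the 2 compared groups alone, a replicate block, protein-coding transcripts, each library left out, and HO replicates 2 and 3 left out together, where the lone HO library is assumed to vary like the other groups.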

Additional observations from a re-analysis of the deposited data

How the results depend on the processing

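With 3 libraries a group and depth known only roughly, small differences of low genes could not be resolved. The count of listed genes that passed in HO-rWNT5A vs RA was 1 and became 0 with no filter on low values, FPKM as deposited, equal FPKM totals, no variance trend and protein-coding transcripts alone, and ranged from 0 to 1 with each library left out. In HO vs RA it ranged from 0 to 1 with each library left out and was 0 in all other settings; in HO-rWNT5A vs HO it was 0 in all 23. The Wnt9a and Lrp5 differences in HO vs RA passed in 1 setting each. No transcript of the 53 genes passed in any setting. The cause of these changes was not tested. The sign of the difference changed in at least 1 setting for 18, 17 and 11 of 30 genes in HO vs RA, HO-rWNT5A vs HO and HO-rWNT5A vs RA; Dvl2, which passed in the last, kept its sign there.

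Over all genes, the number that passed moved widely: 273 in HO vs RA (3 without RA replicate 2 to 707 without HO replicate 3), 1 in HO-rWNT5A vs HO (0 with no filter to 27 without HO replicate 3) and 589 in HO-rWNT5A vs RA (124 without RA replicate 1 to 1330 with the 2 compared groups alone). The split between higher and lower genes depended on scaling. It was 167 to 106 in HO vs RA, but 103 to 179 as deposited, 26 to 30 with equal totals and 105 to 96 with the protein-coding total. In HO-rWNT5A vs RA it was 331 to 258, but 209 to 615 as deposited and 93 to 164 with equal totals.

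Correlations across genes ran from -0.118 to 0.280 for same-numbered libraries and from -0.252 to 0.172 for differently numbered ones. The highest was between HO replicate 1 and HO-rWNT5A replicate 1. Deviations were taken from means of only 3 libraries, so these values cannot settle whether the numbers pair the libraries. With the replicate number as a block, 0 of the 30 genes passed in each comparison, against 1 without it in HO-rWNT5A vs RA, and all genes passing were 116, 2 and 393.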
